A study of Mus musculus with 12 samples.

Results

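Transcript levels of 34 genes of fatty acid oxidation and ketogenesis were described in mouse liver, out of 55536 genes in the deposited tables. The genes were taken by name and followed the route of a fatty acid in 6 steps: 5 genes of activation and thioesterases, 5 of the carnitine shuttle, 8 of mitochondrial oxidation, 7 of the peroxisome and of fatty aldehydes, 3 of ketone bodies, and 6 regulators and switches. Ribosomal RNA-depleted liver RNA was sequenced in 12 samples, 4 in each of 3 groups. The shG0s2 group carried an adenovirus with a short hairpin RNA against G0s2, which encodes an inhibitor of adipose triglyceride lipase. The shRgs16 group carried a hairpin against Rgs16, which encodes a protein that shortens signalling by heterotrimeric G proteins. The shLacZ group was the control, with a hairpin against lacZ, a bacterial gene that mice lack. All animals were wild-type C57BL/6J mice 8 weeks old that received 0.1 OD of virus into the tail vein, and all livers were collected 12 days later at zeitgeber time 12 (h) after 6 h without food. A virus given into the vein is not restricted to one liver cell type by a promoter named in the labels, every group received virus, and an uninfected group was not analysed here. The labels do not say that the replicates are separate mice, so the p-values reflect only how far these samples spread, which may be technical. They name no batch either.

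Fatty acids enter oxidation as coenzyme A thioesters, cross into mitochondria as carnitine esters, and are shortened there by cycles of dehydrogenation, hydration and thiolysis. Very long and branched chains are shortened in peroxisomes instead, and thioesterases release free acids from the coenzyme A esters. In the fasted liver the acetyl-CoA formed is turned into acetoacetate and 3-hydroxybutyrate, the ketone bodies, which leave the cell through monocarboxylate carriers. The nuclear receptor PPARα, encoded by Ppara, activates many of these genes in mouse liver.

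Total counts were 18458266 to 27170443 per sample. G0s2 had 49.3, 37.9, 24.6 and 37.0 CPM (counts scaled to a common library size, by TMM over the 12 samples) in shG0s2, 88.3, 57.8, 69.2 and 84.7 CPM in shRgs16, and 87.4, 74.2, 66.6 and 66.6 CPM in shLacZ. Its log2 fold change in shG0s2 against shLacZ was −0.98 (SE 0.198, adjusted p = 0.00301), but −0.48 with library size alone (adjusted p = 0.0553) and −0.30 on deposited TPM (adjusted p = 0.21, limma), so the group is named here by its hairpin and not as a knockdown. Rgs16 had 71.3, 59.0, 43.9 and 62.2 CPM in shG0s2, 14.4, 19.7, 37.4 and 33.3 CPM in shRgs16, and 105, 212, 153 and 126 CPM in shLacZ, and so was lowest in the group with its own hairpin and, on this scale, also below every shLacZ sample in shG0s2. Its log2 fold change in shG0s2 was −1.32 with TMM, −0.83 with library size alone and −0.58 on TPM, called lower each time (adjusted p = 0.0496 on TPM, limma), although the TPM ranges, 31.1 to 51.2 in shG0s2 and 47.0 to 94.3 in shLacZ, overlapped. Major urinary protein (Mup) genes held 1.15% of counts in shG0s2, 2.27% in shRgs16 and 10.5% in shLacZ. The scale on which libraries are compared moves every fold change, and the part of the Mup genes in that was not tested. Scaling by library size alone, in place of TMM, put the median of all genes at 0.50 (log2) in shG0s2 against shLacZ, 0.31 in shRgs16 against shLacZ and 0.21 in shG0s2 against shRgs16, where TMM put it at 0.01 in each. Library size without Mup and mitochondrially encoded genes put it at 0.33, 0.19 and 0.17 in the same order. The words rose and fell are therefore kept below for calls that were the same under 5 scalings: TMM, relative log expression, library size, library size without Mup and mitochondrially encoded genes, and deposited TPM, the last with another test (limma) and another filter on low values. A call made with TMM alone is given as a value with its counterparts. The size given for a rise or fall is that with TMM unless stated, and sizes moved with the scaling too. Over all settings tried, the falls in shRgs16 against shLacZ shrank to −0.21 for Acaa1b and −0.51 for Pex11a. The rise of Ehhadh in shG0s2 against shLacZ ran from 0.78 to 1.52. Of the 12 samples, shLacZ replicate 3 stood apart for this set: it had the lowest CPM of its group for 28 of the 34 genes. Hepatocyte markers summed to 52574 to 73303 TPM in shG0s2, 69634 to 73879 TPM in shRgs16 and 56840 to 61430 TPM in shLacZ, of which Alb alone, the albumin gene, held 22192 to 33755 TPM, 28435 to 33571 TPM and 15806 to 19452 TPM in those groups. Without Alb the markers summed to 30382 to 39547 TPM in shG0s2, 40286 to 43088 TPM in shRgs16 and 41034 to 43108 TPM in shLacZ, so that without it every shG0s2 sample lay below every shLacZ sample.

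In shG0s2 livers 8 of the 34 genes rose and 1 fell under every scaling, beside 27.9% and 4.32% of 15592 tested genes that did so, and these counts are near those shares. None of these 9 belonged to the carnitine shuttle or to mitochondrial oxidation. Acot2, Acot3, Ehhadh, Aldh3a2, Slc16a1, Pdk4, Ucp2 and Fgf21 rose and Acsl1 fell. With TMM 14 other genes were lower, by 0.24 to 0.66 on the log2 scale. Under library size alone 13 of these 14 were not called and 1, Acadl, was called higher. On TPM 6 of the 14 were not called and 8 were called higher (Etfdh, Acat1, Acadl, Slc22a5, Ech1, Slc25a20, Angptl4 and Decr1). All 34 passed the filter on low counts. The TMM counts of 8 higher, 15 lower and 11 not called stand beside 60.5% of 15592 tested genes called (31.3% higher, 29.2% lower), so a changed gene was common in these livers. The median of the 34 was −0.15, against 0.01 for all genes tested. The CPM ranges of shG0s2 and shLacZ did not overlap for 22 of the 34 genes, beside 55.6% of all genes. With library size alone 20 were higher and 1 lower, beside 64.6% and 7.99% of all genes, and on TPM 27 were higher and 1 lower, beside 72.4% and 4.69%. Without shLacZ replicate 3 the TMM counts were 8 higher and 16 lower.

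In shRgs16 livers 7 of the 34 genes rose and 4 fell under every scaling, beside 21.9% and 4.56% of 15324 tested genes. Acot1, Acot2, Slc22a5, Ehhadh, Pdk4, Ucp2 and Angptl4 rose, and Acsl1, Acaa1b, Pex11a and Vnn1 fell. With TMM 12 other genes were lower, by 0.17 to 0.59. Under library size alone 10 of these 12 were not called, 1 (Acat1) was still lower and 1 (Decr1) was called higher. On TPM 7 of the 12 were not called and 5 were called higher (Hadhb, Ech1, Acaa2, Cpt2 and Decr1). The TMM counts of 7 higher, 16 lower and 11 not called stand beside 49.1% of 15324 tested genes called (24.6% higher, 24.5% lower). The median of the 34 was −0.18, against 0.01 for all genes tested, and the CPM ranges did not overlap for 22 of the 34, beside 45.0% of all genes. With library size alone 16 were higher and 5 lower, beside 50.2% and 8.35% of all genes, and on TPM 21 were higher and 4 lower, beside 56.4% and 5.04%. Without shLacZ replicate 3 the TMM counts were 8 higher and 18 lower, and the median was −0.24. Both shG0s2 and shRgs16 are set against the same 4 shLacZ samples, so their values are given side by side and no likeness between them is drawn from the counts. Acot2, Ehhadh, Pdk4 and Ucp2 were the 4 genes that rose in each comparison.

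**Figure D1:**
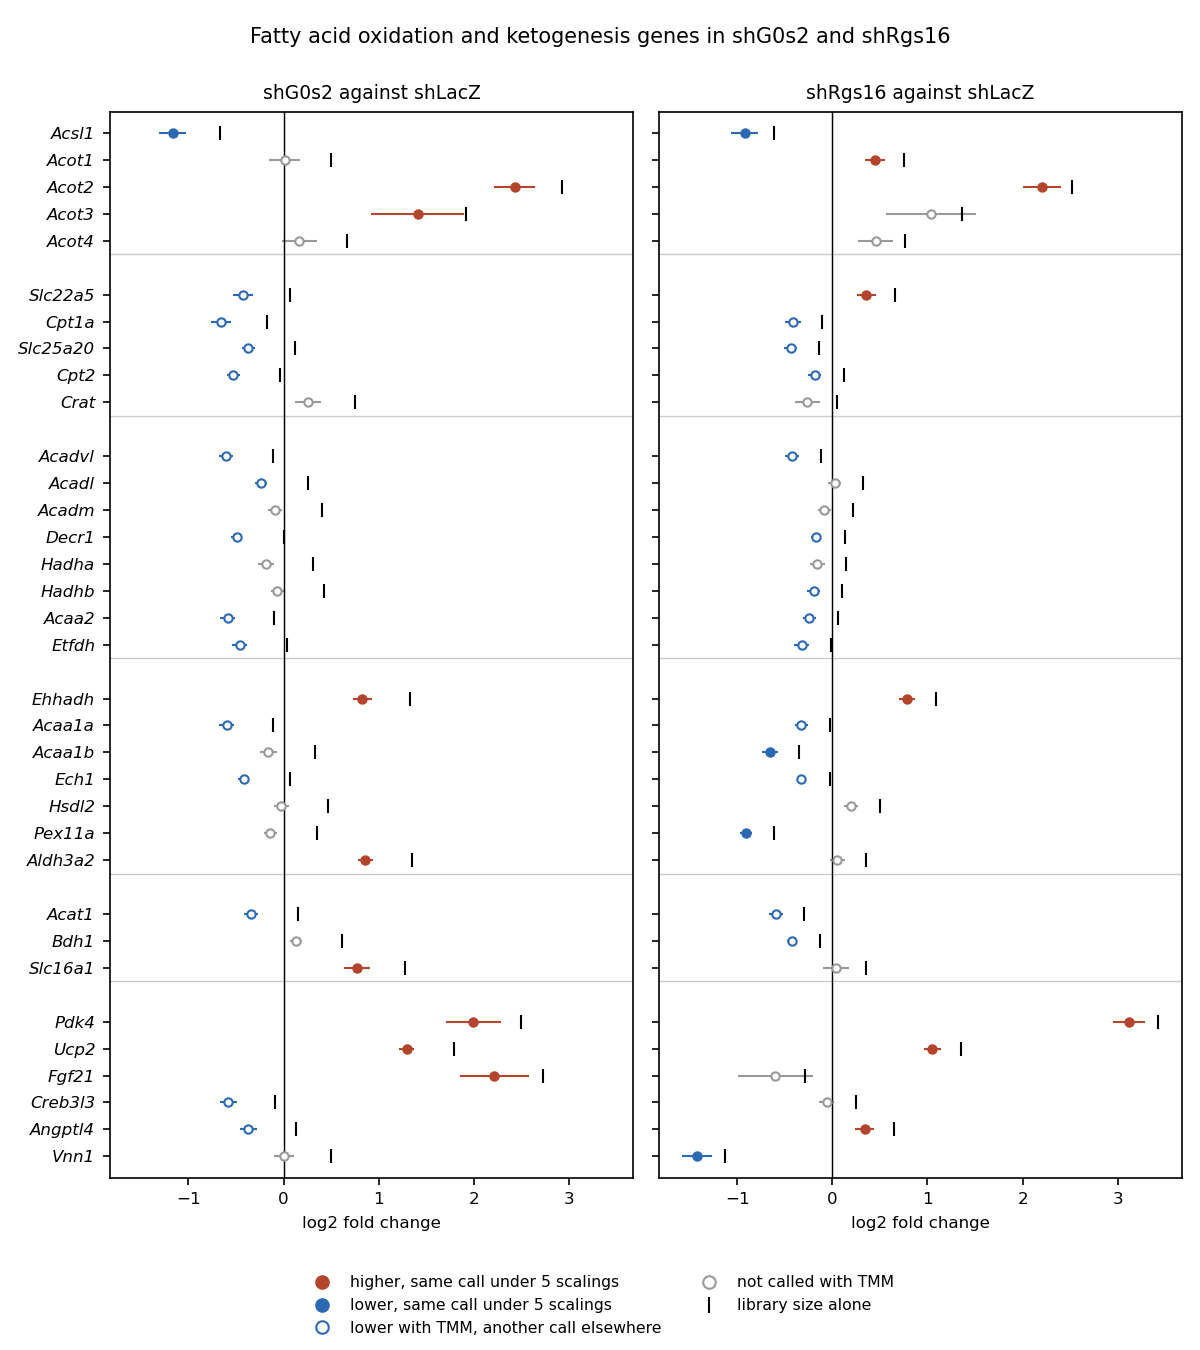
Log2 fold change (x axis) of each of the 34 genes (rows, grouped by step) in shG0s2 against shLacZ and in shRgs16 against shLacZ, 4 samples per group. Circles are TMM estimates with bars of 1 SE, filled where the call was the same under 5 scalings, and black ticks are estimates with library size alone: the open blue circles, most of them in the carnitine shuttle and the mitochondrial step, lie below 0 while their ticks lie near or above it, and Acot2, Ehhadh, Pdk4 and Ucp2 lie above 0 with both.

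Promoters are printed for the 4 genes that rose in both shG0s2 and shRgs16, for Acot1, the neighbour of Acot2, and for Fgf21, which rose in shG0s2, because these genes carry the results that follow. Each is the 300 bases from 250 before to 50 after the RefSeq start site in GRCm38.p6, read 5′ to 3′ on the strand of the gene: Acot2 at chr12:83987611-83987910, Acot1 at chr12:84009252-84009551 and Ucp2 at chr7:100493108-100493407 on the plus strand, and Ehhadh at chr16:21787785-21788084, Pdk4 at chr6:5496229-5496528 and Fgf21 at chr7:45615441-45615740 on the minus strand. Capitals mark matches, on either strand, to the motifs named after the sequences.
Acot2: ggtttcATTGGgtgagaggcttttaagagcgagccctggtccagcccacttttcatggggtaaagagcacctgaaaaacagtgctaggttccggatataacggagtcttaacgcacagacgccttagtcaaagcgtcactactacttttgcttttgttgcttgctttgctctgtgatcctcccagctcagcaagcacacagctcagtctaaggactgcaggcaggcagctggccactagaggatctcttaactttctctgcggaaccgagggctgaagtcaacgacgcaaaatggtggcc
Acot1: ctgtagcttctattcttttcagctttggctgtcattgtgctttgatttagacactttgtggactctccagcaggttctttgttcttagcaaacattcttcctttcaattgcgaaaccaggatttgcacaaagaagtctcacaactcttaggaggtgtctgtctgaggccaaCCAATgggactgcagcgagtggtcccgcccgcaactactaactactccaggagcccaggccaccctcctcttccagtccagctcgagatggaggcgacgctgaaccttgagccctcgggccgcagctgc
Ehhadh: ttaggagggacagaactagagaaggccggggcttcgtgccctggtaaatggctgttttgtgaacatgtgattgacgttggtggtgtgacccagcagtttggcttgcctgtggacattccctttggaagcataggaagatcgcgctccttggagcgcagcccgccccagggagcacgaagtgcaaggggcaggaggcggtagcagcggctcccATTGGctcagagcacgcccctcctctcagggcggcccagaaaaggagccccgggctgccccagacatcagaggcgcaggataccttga
Pdk4: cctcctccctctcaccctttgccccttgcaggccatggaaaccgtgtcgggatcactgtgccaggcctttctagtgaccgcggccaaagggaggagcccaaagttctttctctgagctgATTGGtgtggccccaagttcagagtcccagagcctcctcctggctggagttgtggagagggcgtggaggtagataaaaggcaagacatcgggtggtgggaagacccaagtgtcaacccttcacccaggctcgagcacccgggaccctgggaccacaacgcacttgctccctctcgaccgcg
Ucp2: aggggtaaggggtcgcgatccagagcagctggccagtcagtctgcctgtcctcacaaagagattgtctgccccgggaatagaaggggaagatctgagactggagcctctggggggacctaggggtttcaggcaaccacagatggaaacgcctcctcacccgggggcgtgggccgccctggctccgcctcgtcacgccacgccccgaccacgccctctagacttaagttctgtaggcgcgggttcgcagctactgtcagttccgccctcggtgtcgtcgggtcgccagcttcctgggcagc
Fgf21: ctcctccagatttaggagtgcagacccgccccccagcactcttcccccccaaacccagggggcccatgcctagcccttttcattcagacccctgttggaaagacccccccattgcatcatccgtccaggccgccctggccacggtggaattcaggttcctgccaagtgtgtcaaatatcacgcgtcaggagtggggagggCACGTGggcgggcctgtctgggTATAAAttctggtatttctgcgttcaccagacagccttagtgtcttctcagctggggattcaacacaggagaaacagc
Windows of 28 of the 34 genes were searched. No window was searched for Decr1, Vnn1, Acat1, Acaa2, Crat or Angptl4, which does not mean that none exists. The CCAAT box (CCAAT or its reverse complement ATTGG) was in the windows of 13 of the 28 genes, among them Acot2, Acot1, Ehhadh and Pdk4, beside 37.4% of all 32817 RefSeq windows. The E-box CACGTG was in those of Acot4, Aldh3a2, Fgf21 and Slc16a1, beside 7.15% of all windows, and in Fgf21 it began 50 bases before the start site. The TATA letters TATAAA were in Fgf21, 28 bases before the start, and in Acot4, beside 13.6%. The repeat that PPARα and its partner RXR bind, AGGNCA and again AGGNCA with 1 base between them, was in none of the 28 genes' windows, beside 0.381% of all windows. The shorter AAAGGTCA was in Acot4 alone, beside 1.51%, and the cyclic AMP element TGACGTCA was in none, beside 1.79%. The Ucp2 window held none of the 6 motifs. Such matches describe letters in these windows, and sites farther from the start were not searched.

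Of the 5 activation and thioesterase genes, the synthetase Acsl1 fell in both shG0s2 and shRgs16 and the thioesterase Acot2 rose in both. Acsl1 encodes the acyl-CoA synthetase that charges long-chain fatty acids with coenzyme A in liver. It had 718, 576, 704 and 637 CPM in shG0s2, 803, 770, 893 and 681 CPM in shRgs16, and 1391, 1751, 1100 and 1699 CPM in shLacZ. In CPM every shG0s2 and shRgs16 sample lay below every shLacZ sample. In TPM the ranges of shRgs16 and shLacZ overlapped, with 312.74 TPM in shRgs16 replicate 3 and 306.52 TPM in shLacZ replicate 3. Acsl1 fell by 1.16 (log2; SE 0.142, adjusted p = 2.7e-05) in shG0s2 and by 0.92 (SE 0.143, adjusted p = 0.000407) in shRgs16; library size alone gave −0.67 in shG0s2 and −0.61 in shRgs16. Acot2 encodes a mitochondrial thioesterase of long-chain acyl-CoA. It had 106, 77.2, 66.8 and 74.9 CPM in shG0s2, 63.6, 65.7, 62.7 and 89.1 CPM in shRgs16, and 13.8, 16.7, 10.7 and 19.6 CPM in shLacZ. Both groups were clear of the shLacZ range, and Acot2 rose by 2.43 (SE 0.216, adjusted p = 2.7e-05) in shG0s2 and by 2.21 (SE 0.198, adjusted p = 5.13e-05) in shRgs16. Among all genes tested these changes stood at percentiles 97.6 and 99.2.

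Acot1 encodes the cytosolic counterpart of Acot2. It rose in shRgs16, and its call in shG0s2 hung on scaling. Acot1 had 88.5, 56.4, 56.2 and 65.0 CPM in shG0s2, 82.3, 83.7, 103 and 95.2 CPM in shRgs16, and 72.8, 75.0, 54.3 and 63.9 CPM in shLacZ. Its CPM ranges overlapped between shG0s2 and shLacZ (log2 fold change 0.01, adjusted p = 0.96), but it was called higher there with library size alone (0.50, adjusted p = 0.0088) and on TPM (0.94, adjusted p = 0.000293, limma), where 50.7 to 84.5 TPM in shG0s2 stood clear of 27.9 to 36.6 TPM in shLacZ. All 4 shRgs16 samples were above shLacZ in CPM, and Acot1 rose there by 0.45 (SE 0.107, adjusted p = 0.00542). Acot3, a peroxisomal thioesterase gene, had 77.4, 50.5, 67.6 and 51.6 CPM in shG0s2, 39.2, 48.2, 55.1 and 50.5 CPM in shRgs16, and 14.4, 29.2, 8.40 and 41.9 CPM in shLacZ. The shLacZ samples were spread over a wide range, and the rise of Acot3 in shG0s2 by 1.41 (SE 0.485, adjusted p = 0.041) kept its call in 2 of the 8 fits that left out 1 sample. The adjusted p in those fits ran up to 0.0942, without shG0s2 replicate 1. In shRgs16 the value was 1.04 (SE 0.476, adjusted p = 0.117), and it passed without shLacZ replicate 4 (1.48, adjusted p = 0.0361) and with library size alone (1.36, adjusted p = 0.0395). Acot4, also a peroxisomal thioesterase gene, averaged 117 ± 14.3 CPM in shG0s2, 144 ± 17.0 CPM in shRgs16 and 105 ± 25.5 CPM in shLacZ (SD, n = 4 each) and was called in neither comparison with TMM. It passed in shRgs16 without shLacZ replicate 3 (0.30, adjusted p = 0.035), and with library size alone it was called higher in both (0.67 and 0.76).

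The 4 thioesterase genes lie in the order Acot2, Acot1, Acot4 and Acot3 on the plus strand of chromosome 12, within 72542 bases of GRCm38 (83987861 to 84060402). Acot2 and Acot1 are close copies: 24.55% of the distinct 50-base words of Acot2 transcripts also occur in Acot1 transcripts, and estimated counts divide such reads by a model, so the split between the genes is uncertain. The ratio of their counts within a sample needs no scaling between libraries. There were 1.20, 1.37, 1.19 and 1.15 counts of Acot2 per count of Acot1 in shG0s2, 0.772, 0.785, 0.608 and 0.936 in shRgs16, and 0.19, 0.223, 0.197 and 0.306 in shLacZ. The ratio was thus above 1 in each shG0s2 sample, below 1 in each shRgs16 sample and at most 0.306 in each shLacZ sample. The log2 ratio was higher by 2.44 in shG0s2 and by 1.77 in shRgs16 than in shLacZ (exact two-sided permutation p = 0.0286 for each, the smallest that 4 against 4 allows; 0.0457 after Benjamini-Hochberg adjustment over 8 ratio tests). These ratios were chosen after the values had been seen, which the adjustment does not cover.

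In the carnitine shuttle, Slc22a5 rose in shRgs16, and no other call against shLacZ was the same under every scaling. Cpt1a encodes carnitine palmitoyltransferase 1A, the step of entry into liver mitochondria that malonyl-CoA inhibits. It had 563, 436, 585 and 519 CPM in shG0s2, 656, 620, 616 and 624 CPM in shRgs16, and 843, 835, 727 and 942 CPM in shLacZ. The shLacZ samples were highest on this scale, and the difference was −0.66 (log2; SE 0.107, adjusted p = 0.000203) in shG0s2 and −0.41 (SE 0.080, adjusted p = 0.00119) in shRgs16. Those differences were −0.17 and −0.11 with library size alone, called in neither comparison, and turned to 0.05 and 0.03 on TPM. Cpt2 encodes the enzyme that returns the acyl group to coenzyme A inside the mitochondrion. It had 137, 134, 138 and 141 CPM in shG0s2, 175, 177, 175 and 178 CPM in shRgs16, and 200, 201, 179 and 220 CPM in shLacZ. Its log2 fold change was −0.53 (SE 0.067, adjusted p = 2.88e-05) in shG0s2 and −0.19 (SE 0.065, adjusted p = 0.0312) in shRgs16, against −0.04 and 0.12 with library size alone. The call in shRgs16 was kept in 1 of 8 fits that left out 1 sample. The counts of Cpt1a per count of Cpt2 averaged 3.8 in shG0s2, 3.57 in shRgs16 and 4.17 in shLacZ (geometric means, n = 4 each). That ratio was lower in shRgs16 than in shLacZ by 0.23 on the log2 scale (exact permutation p = 0.0286, adjusted 0.0457) and did not pass in shG0s2 (exact permutation p = 0.229). It was also chosen with its values known, which the adjustment does not cover.

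Slc25a20 encodes the carrier that exchanges acylcarnitine for carnitine across the inner mitochondrial membrane. It had 165, 148, 149 and 153 CPM in shG0s2, 152, 142, 149 and 149 CPM in shRgs16, and 214, 209, 179 and 199 CPM in shLacZ. With TMM the log2 fold change was −0.37 (SE 0.070, adjusted p = 0.000619) in shG0s2 and −0.44 (SE 0.064, adjusted p = 0.000163) in shRgs16, against 0.12 and −0.14 with library size alone, neither called. On TPM Slc25a20 was at 0.33, called higher, in shG0s2. Slc22a5 encodes the carnitine importer of the plasma membrane, and shG0s2 and shRgs16 parted for it. It had 61.5, 55.0, 53.0 and 49.3 CPM in shG0s2, 93.3, 85.6, 103 and 99.2 CPM in shRgs16, and 77.5, 76.5, 58.8 and 83.8 CPM in shLacZ. It rose in shRgs16 by 0.36 (SE 0.101, adjusted p = 0.0135), while in shG0s2 the value was −0.43 with TMM (adjusted p = 0.00463), 0.07 with library size alone and 0.28, called higher, on TPM. Slc22a5 shares 26.06% of its 50-base words with Slc22a21, so its counts are uncertain to that extent. Crat, the gene of carnitine acetyltransferase, averaged 95.5 ± 7.22 CPM in shG0s2, 67.3 ± 1.69 CPM in shRgs16 and 80.6 ± 16.5 CPM in shLacZ and was called in neither comparison with TMM (0.26 and −0.26). It was called lower in shRgs16 without shLacZ replicate 3 (−0.40, adjusted p = 0.000885) and higher in shG0s2 with library size alone (0.75).

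None of the 8 genes of mitochondrial oxidation kept a call under every scaling in either shG0s2 or shRgs16. Acadm encodes the medium-chain acyl-CoA dehydrogenase. It had 413, 396, 361 and 381 CPM in shG0s2, 405, 384, 381 and 397 CPM in shRgs16, and 455, 410, 382 and 411 CPM in shLacZ. The 3 groups overlapped, with log2 fold changes of −0.09 (SE 0.073, adjusted p = 0.324) in shG0s2 and −0.08 (SE 0.065, adjusted p = 0.315) in shRgs16; library size alone gave 0.41 and 0.22, both called higher. Acadvl encodes the very long-chain dehydrogenase of the inner membrane. It had 325, 305, 333 and 316 CPM in shG0s2, 359, 330, 397 and 370 CPM in shRgs16, and 539, 480, 444 and 491 CPM in shLacZ. All shG0s2 and shRgs16 samples lay below the shLacZ range on this scale. Its log2 fold change was −0.60 (SE 0.073, adjusted p = 2.01e-05) in shG0s2 and −0.43 (SE 0.076, adjusted p = 0.0007) in shRgs16, against −0.11 and −0.12 with library size alone, neither called. Exons of Acadvl overlap those of Dvl2 on the opposite strand over 42.85% of their bases, and the strand setting of the counting is not given in the sources used here.

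Acaa2, the mitochondrial 3-ketoacyl-CoA thiolase gene, had 459, 378, 453 and 456 CPM in shG0s2, 558, 521, 588 and 576 CPM in shRgs16, and 706, 648, 630 and 660 CPM in shLacZ. The groups lay in that order, lowest first, without overlap on the TMM scale, at −0.59 (SE 0.081, adjusted p = 5.42e-05) in shG0s2 and −0.24 (SE 0.066, adjusted p = 0.00962) in shRgs16, and at −0.10 and 0.06 with library size alone. Decr1 encodes the reductase needed for unsaturated chains. It had 188, 190, 179 and 183 CPM in shG0s2, 232, 224, 237 and 238 CPM in shRgs16, and 266, 262, 247 and 274 CPM in shLacZ. TMM gave −0.49 (SE 0.058, adjusted p = 1.69e-05) in shG0s2 and −0.17 (SE 0.056, adjusted p = 0.0221) in shRgs16, the value in shRgs16 kept as a call in 4 of 8 fits without 1 sample and turned to 0.13, called higher, by library size alone. On TPM Decr1 was at 0.22 in shG0s2 and 0.27 in shRgs16, both called higher. Etfdh, whose product hands the electrons to ubiquinone, averaged 151 ± 6.95 CPM in shG0s2, 167 ± 5.02 CPM in shRgs16 and 209 ± 22.8 CPM in shLacZ, with TMM values of −0.46 in shG0s2 and −0.32 in shRgs16, both called lower, against 0.03 and −0.02, neither called, with library size alone. On TPM Etfdh was at 0.23, called higher, in shG0s2. Acadl, the long-chain dehydrogenase gene, averaged 169 ± 10.4 CPM in shG0s2, 204 ± 13.4 CPM in shRgs16 and 200.2 ± 11.3 CPM in shLacZ. Its TMM values of −0.24 (called lower) in shG0s2 and 0.02 (not called) in shRgs16 became 0.25 and 0.33, both called higher, with library size alone.

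Hadha and Hadhb encode the α and β subunits of the mitochondrial trifunctional protein and lie head to head on chromosome 5, 85 bases apart. Hadha averaged 418 ± 24.7 CPM in shG0s2, 429 ± 18.5 CPM in shRgs16 and 479 ± 48.7 CPM in shLacZ, and Hadhb averaged 292 ± 5.96 CPM in shG0s2, 269 ± 13.1 CPM in shRgs16 and 308 ± 22.4 CPM in shLacZ (SD, n = 4 each). There were 1.53, 1.29, 1.5 and 1.42 counts of Hadha per count of Hadhb in shG0s2, 1.60, 1.60, 1.58 and 1.60 in shRgs16, and 1.59, 1.58, 1.48 and 1.56 in shLacZ. The ratio was nearly the same in all 4 shRgs16 samples and lowest in shG0s2 replicate 2. Neither group passed against shLacZ (exact permutation p = 0.0857 in shG0s2 and 0.0571 in shRgs16). With TMM Hadha was called lower when shLacZ replicate 3 was left out and in no other such fit (−0.25, adjusted p = 0.00854, in shG0s2; −0.24, adjusted p = 0.00737, in shRgs16). Hadhb was lower in shRgs16 with TMM (−0.20, adjusted p = 0.0285) but kept that call in 2 of 8 fits without 1 sample, and it shares 18.14% of its 50-base words with the predicted gene Gm13910.

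Of the 7 peroxisomal and fatty aldehyde genes, Ehhadh rose in both shG0s2 and shRgs16, Aldh3a2 rose in shG0s2, and Acaa1b and Pex11a fell in shRgs16. Ehhadh encodes the peroxisomal bifunctional enzyme, which hydrates and then oxidises the shortened chain. It had 777, 795, 683 and 620 CPM in shG0s2, 678, 742, 720 and 674 CPM in shRgs16, and 396, 396, 367 and 472 CPM in shLacZ. All 8 shG0s2 and shRgs16 samples lay above the shLacZ range, and Ehhadh rose by 0.83 (SE 0.101, adjusted p = 2.18e-05) in shG0s2 and by 0.78 (SE 0.082, adjusted p = 1.54e-05) in shRgs16. Aldh3a2 encodes fatty aldehyde dehydrogenase, which turns long-chain aldehydes into acids. It had 889, 961, 828 and 843 CPM in shG0s2, 545, 488, 458 and 536 CPM in shRgs16, and 477, 461, 545 and 468 CPM in shLacZ. It rose in shG0s2 by 0.86 (SE 0.081, adjusted p = 2.61e-06), and in shRgs16 its CPM range overlapped that of shLacZ (0.05, adjusted p = 0.604). In shRgs16 the value was 0.35 with library size alone (adjusted p = 0.00541) and 0.47 on TPM (adjusted p = 0.00331, limma), both called higher, and the TPM ranges, 216.5 to 270.3 in shRgs16 and 166 to 216.3 in shLacZ, did not overlap.

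Pex11a encodes a membrane protein that elongates peroxisomes before they divide. It had 205, 203, 190 and 176 CPM in shG0s2, 116, 102, 121 and 120 CPM in shRgs16, and 226, 210, 223 and 200 CPM in shLacZ. The shRgs16 samples lay below all others, and Pex11a fell there by 0.91 (SE 0.067, adjusted p = 1.66e-06). In shG0s2 it was not called with TMM (−0.14, adjusted p = 0.089) but was called higher with library size alone (0.35, adjusted p = 0.00171) and on TPM (0.50, adjusted p = 0.000264, limma), at 151 to 183 TPM in shG0s2 and 107 to 124 TPM in shLacZ. Acaa1b and Acaa1a encode the peroxisomal thiolases. Acaa1b averaged 1274 ± 116 CPM in shG0s2, 914 ± 98.4 CPM in shRgs16 and 1434 ± 90.4 CPM in shLacZ, and it fell in shRgs16 by 0.65 (SE 0.088, adjusted p = 9.04e-05), while in shG0s2 it was −0.16, not called, with TMM and 0.33, called higher, with library size alone. Acaa1a averaged 199 ± 18.8 CPM in shG0s2, 242 ± 14.5 CPM in shRgs16 and 303 ± 21.0 CPM in shLacZ, lower with TMM in both shG0s2 and shRgs16 (−0.60 and −0.33) and called in neither with library size alone (−0.11 and −0.02). There were 6.42 counts of Acaa1b per count of Acaa1a in shG0s2, 3.76 in shRgs16 and 4.74 in shLacZ (geometric means), so the pair moved to opposite sides of shLacZ. The log2 ratio differed from shLacZ by 0.44 in shG0s2 and by −0.33 in shRgs16 (exact permutation p = 0.0286 for each, adjusted 0.0457). This pair too was chosen after its values had been seen, which the adjustment does not cover. The copies share 30.48% of the 50-base words of Acaa1b, and Acaa1b stayed far the more abundant of the pair in every sample. Ech1, an auxiliary isomerase gene, averaged 194 ± 5.82 CPM in shG0s2, 209 ± 6.25 CPM in shRgs16 and 262 ± 5.64 CPM in shLacZ, called lower with TMM in both and in neither with library size alone (0.07 and −0.02). On TPM Ech1 was called higher in both shG0s2 (0.29) and shRgs16 (0.12). Hsdl2, a peroxisomal dehydrogenase-like gene, averaged 132 ± 6.68 CPM in shG0s2, 155 ± 7.27 CPM in shRgs16 and 135 ± 14.2 CPM in shLacZ and was not called in either with TMM, but higher in both with library size alone (0.47 and 0.50).

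**Figure D2:**
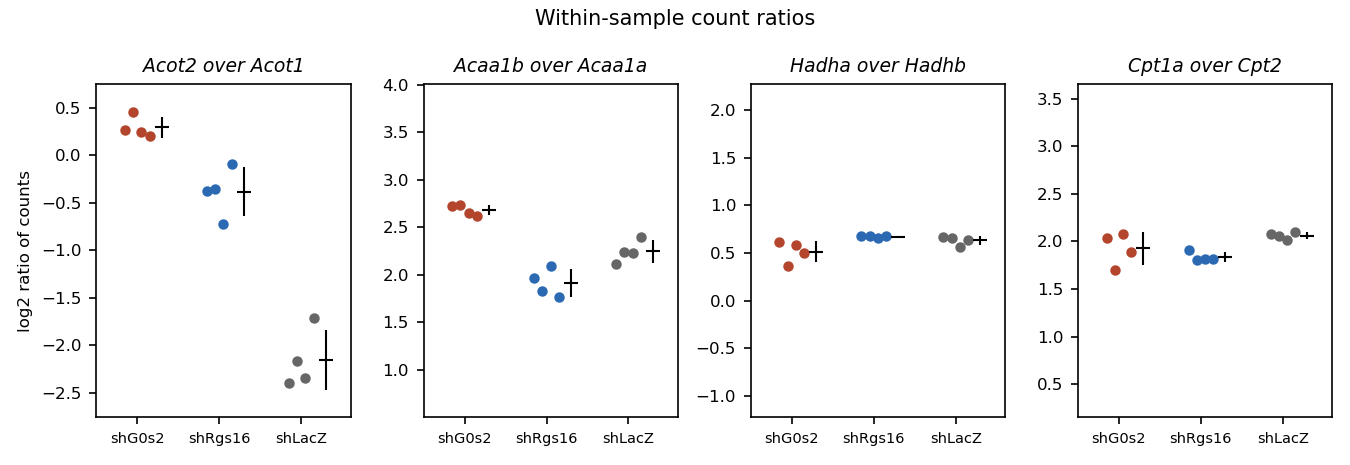
Log2 ratio of the counts of 2 genes within each sample (y axis; each panel spans the same number of log2 units) in shG0s2, shRgs16 and shLacZ. Points are samples and the bar gives the mean and SD of 4: Acot2 over Acot1 averages 0.29 in shG0s2, −0.38 in shRgs16 and −2.15 in shLacZ, and Acaa1b over Acaa1a lies above shLacZ in shG0s2 and below it in shRgs16.

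Of the ketone body genes, the carrier rose in shG0s2. Slc16a1 encodes monocarboxylate transporter 1, which moves lactate and ketone bodies across the plasma membrane. It had 77.0, 82.9, 73.6 and 74.4 CPM in shG0s2, 45.2, 49.4, 44.9 and 47.1 CPM in shRgs16, and 40.9, 53.2, 33.6 and 53.7 CPM in shLacZ. It rose in shG0s2 by 0.77 (SE 0.139, adjusted p = 0.000978), and in CPM the shRgs16 samples lay within the shLacZ range (0.04, adjusted p = 0.838). The shRgs16 value was 0.35 with library size alone (adjusted p = 0.023) and 0.46 on TPM (adjusted p = 0.00925, limma), both called higher, at 13.2 to 15.6 TPM in shRgs16 and 8.02 to 11.8 TPM in shLacZ. Bdh1 encodes the dehydrogenase that interconverts acetoacetate and 3-hydroxybutyrate. It had 251, 243, 281 and 269 CPM in shG0s2, 187, 170, 183 and 177 CPM in shRgs16, and 246, 236, 244 and 236 CPM in shLacZ. Its value was 0.13 (SE 0.064, adjusted p = 0.1) in shG0s2 and −0.43 (SE 0.053, adjusted p = 4.93e-05) in shRgs16; with library size alone it was 0.62, called higher, in shG0s2 and −0.13, not called, in shRgs16. Acat1 encodes the mitochondrial acetoacetyl-CoA thiolase. It had 470, 462, 466 and 424 CPM in shG0s2, 408, 378, 391 and 363 CPM in shRgs16, and 574, 559, 643 and 541 CPM in shLacZ. TMM gave −0.34 (SE 0.074, adjusted p = 0.00172) in shG0s2 and −0.59 (SE 0.069, adjusted p = 3.3e-05) in shRgs16; library size alone gave 0.15, not called, and −0.30, still called lower, and TPM gave 0.32, called higher, and −0.13, not called.

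The regulators and switches held the widest of the 34 differences with TMM in shRgs16 against shLacZ, that of Pdk4, and in shG0s2 against shRgs16, that of Fgf21; in shG0s2 against shLacZ Acot2 was wider. Pdk4 encodes pyruvate dehydrogenase kinase 4, which shuts off the use of pyruvate when fat is burned. It had 64.0, 55.2, 29.6 and 38.6 CPM in shG0s2, 84.5, 101, 113 and 114 CPM in shRgs16, and 13.6, 11.0, 8.40 and 14.3 CPM in shLacZ. The 3 groups did not overlap, and Pdk4 rose by 1.99 (SE 0.287, adjusted p = 0.000609) in shG0s2 and by 3.12 (SE 0.172, adjusted p = 2.98e-06) in shRgs16, at percentiles 96.1 and 99.8 of all genes tested. Fgf21 encodes a hormone that the fasted liver secretes. It had 2.18, 5.48, 2.39 and 2.98 CPM in shG0s2, 0.714, 0.436, 0.235 and 0.438 CPM in shRgs16, and 0.791, 0.944, 0.354 and 0.706 CPM in shLacZ. Fgf21 was the least abundant gene of the set and stayed under 1 CPM in every shRgs16 and shLacZ sample. It rose in shG0s2 by 2.22 (SE 0.363, adjusted p = 0.000256) and was not called in shRgs16 (−0.60, SE 0.395, adjusted p = 0.231).

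Ucp2 encodes a carrier of the inner mitochondrial membrane that macrophages also express. It had 236, 245, 246 and 251 CPM in shG0s2, 213, 225, 181 and 214 CPM in shRgs16, and 102, 92.2, 93.0 and 115 CPM in shLacZ. All shG0s2 and shRgs16 samples were above shLacZ, and Ucp2 rose by 1.29 (SE 0.076, adjusted p = 7.85e-08) in shG0s2 and by 1.05 (SE 0.088, adjusted p = 3.64e-06) in shRgs16. Kupffer cell and macrophage markers were also higher: 13 of 14 rose in each of shG0s2 and shRgs16, and their summed level was 2193 to 2348 TPM in shG0s2, 1619 to 1955 TPM in shRgs16 and 767 to 876 TPM in shLacZ. Their part in the Ucp2 result was not tested. In bulk liver, fewer cells of a type and less RNA per cell cannot be told apart.

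Vnn1 encodes pantetheinase, which frees pantothenate, the vitamin within coenzyme A. It had 84.3, 101, 81.3 and 74.1 CPM in shG0s2, 35.3, 23.7, 29.7 and 39.0 CPM in shRgs16, and 101, 83.2, 80.6 and 77.1 CPM in shLacZ. The shRgs16 samples were far below the others, and Vnn1 fell there by 1.42 (SE 0.153, adjusted p = 9.42e-05), at percentile 1.3 of all genes; in shG0s2 the value was 0.0045 with TMM (adjusted p = 0.973), but 0.50 with library size alone (adjusted p = 0.00295) and 0.70 on TPM (adjusted p = 0.000735, limma), both called higher, at 54.8 to 80.4 TPM in shG0s2 and 33.5 to 44.6 TPM in shLacZ. Angptl4 encodes a secreted inhibitor of lipoprotein lipase. It had 183, 186, 190 and 194 CPM in shG0s2, 266, 306, 338 and 331 CPM in shRgs16, and 233, 253, 208 and 286 CPM in shLacZ. It rose in shRgs16 by 0.34 (SE 0.103, adjusted p = 0.0178), a call lost without shRgs16 replicate 4 (adjusted p = 0.0508), and in shG0s2 it was −0.37 with TMM (adjusted p = 0.00316), 0.13 with library size alone and 0.34, called higher, on TPM. Creb3l3 encodes CREBH, a liver transcription factor of the fasting response in mice. It averaged 282 ± 21.3 CPM in shG0s2, 407 ± 14.2 CPM in shRgs16 and 424 ± 45.9 CPM in shLacZ, with a TMM value of −0.58 in shG0s2 (adjusted p = 0.00014) that was not called with library size alone (−0.09); in shRgs16 it was −0.06, not called, with TMM and 0.24, called higher, with library size alone.

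**Figure D3:**
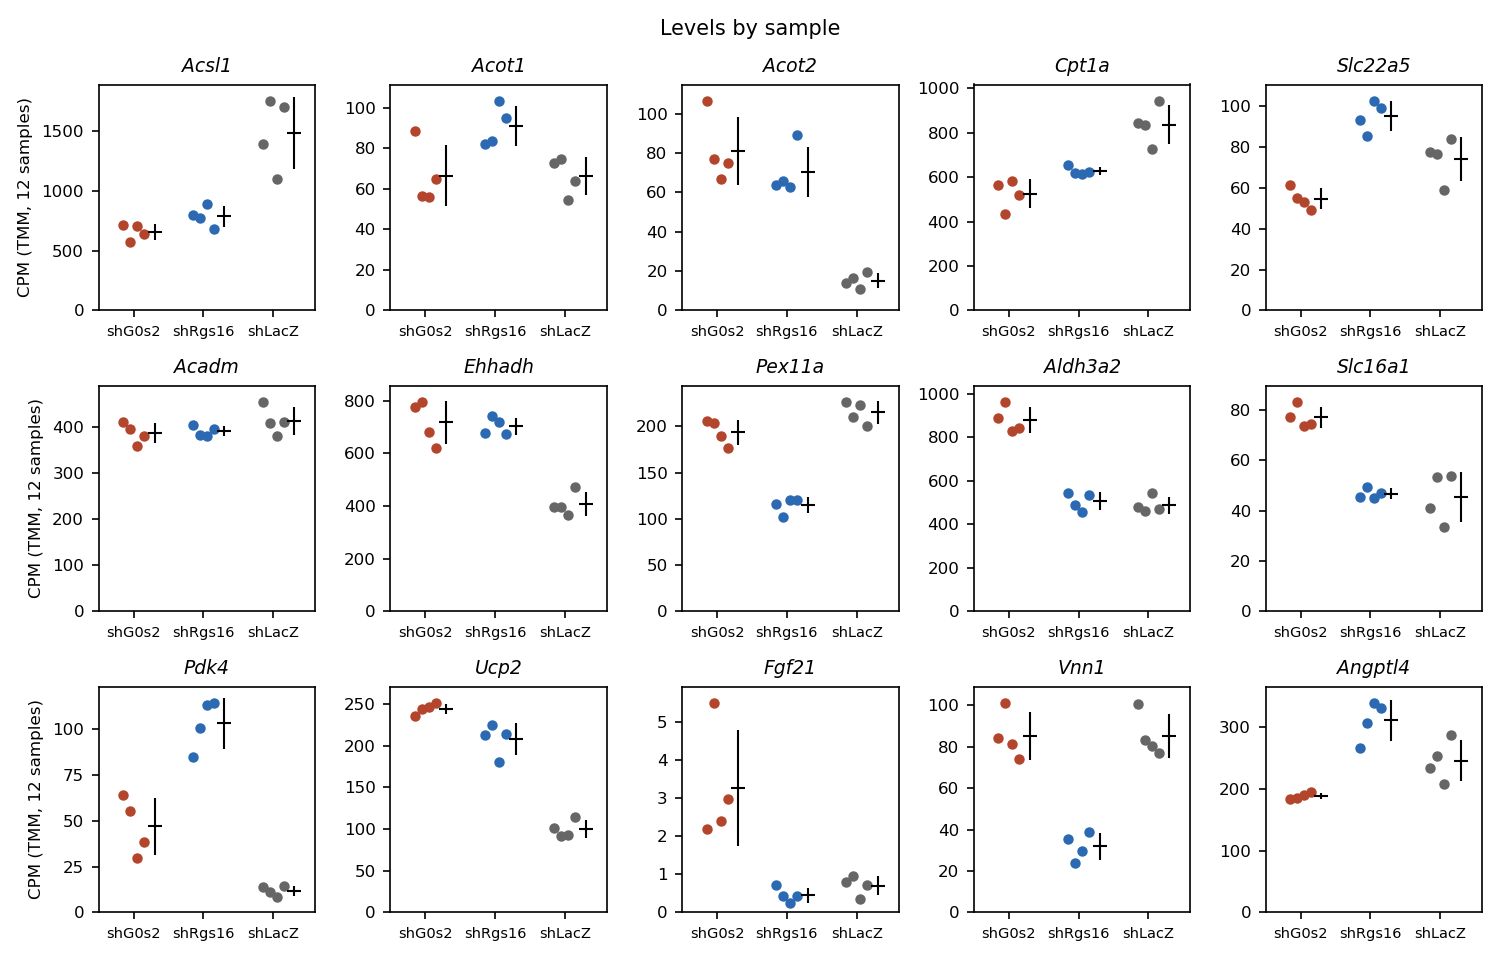
CPM (y axis, from 0, TMM over 12 samples) of 15 genes in the 4 shG0s2, 4 shRgs16 and 4 shLacZ samples. Points are samples and the bar gives the mean and SD: Acot2, Ehhadh, Pdk4 and Ucp2 are above shLacZ in all 8 shG0s2 and shRgs16 samples; on this scale Aldh3a2, Slc16a1 and Fgf21 are above it in all 4 shG0s2 samples and not in all shRgs16 samples, and Pex11a and Vnn1 are below shLacZ in the 4 shRgs16 samples; Cpt1a, highest in shLacZ here, has slightly positive log2 fold changes in both on TPM.

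Set against shRgs16, shG0s2 had 10 of the 34 genes higher and 4 lower under every scaling, beside 18.9% and 6.62% of 16018 tested genes. These values come from a test of shG0s2 against shRgs16 itself in a model of all 12 samples. With TMM 10 were higher, 13 lower and 11 not called, beside 41.5% of 16018 tested genes called (21.0% higher, 20.5% lower), and the median of the 34 was −0.07 against 0.01 for all genes. CPM ranges did not overlap for 23 of the 34, beside 39.8% of all genes. With library size alone 15 were higher and 6 lower, beside 37.8% and 9.79%, and on TPM 17 were higher and 4 lower, beside 41.4% and 7.22%. All 3 ketone body genes were higher in shG0s2: Slc16a1 by 0.72 (SE 0.118, adjusted p = 0.000295), Bdh1 by 0.54 (SE 0.058, adjusted p = 3.91e-06) and Acat1 by 0.24 (SE 0.069, adjusted p = 0.00999). Of the peroxisomal and fatty aldehyde genes, Aldh3a2 was higher by 0.80 (SE 0.080), Pex11a by 0.75 (SE 0.069) and Acaa1b by 0.48 (SE 0.092, adjusted p = 0.000637). Ehhadh differed by 0.03 with TMM (adjusted p = 0.811) and by 0.23, called higher, with library size alone (adjusted p = 0.0406). Crat was higher by 0.51 (SE 0.117, adjusted p = 0.00377), and Slc22a5 was lower by 0.80 (SE 0.099, adjusted p = 1.83e-05). Among the regulators, Fgf21 was higher in shG0s2 by 2.80 (SE 0.371, adjusted p = 2.73e-05) and Vnn1 by 1.42 (SE 0.149, adjusted p = 1.57e-05). Ucp2 was higher by 0.23 (SE 0.078, adjusted p = 0.026), a call kept in 7 of 12 fits without 1 sample. Pdk4 was lower by 1.14 (SE 0.236, adjusted p = 0.00322), Angptl4 by 0.72 (SE 0.092, adjusted p = 1.73e-05) and Creb3l3 by 0.53 (SE 0.080, adjusted p = 8.05e-05). Acot2 differed by 0.21 with TMM (SE 0.192, adjusted p = 0.415) and by 0.47 on TPM, called higher (adjusted p = 0.0359, limma). The 9 remaining lower calls with TMM (Acot1, Cpt1a, Cpt2, Acadvl, Acadl, Decr1, Acaa2, Acaa1a and Hsdl2) were absent on TPM, and those of Acot1, Cpt1a and Acadvl were kept in 7, 6 and 4 of 12 fits without 1 sample.

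**Figure D4:**
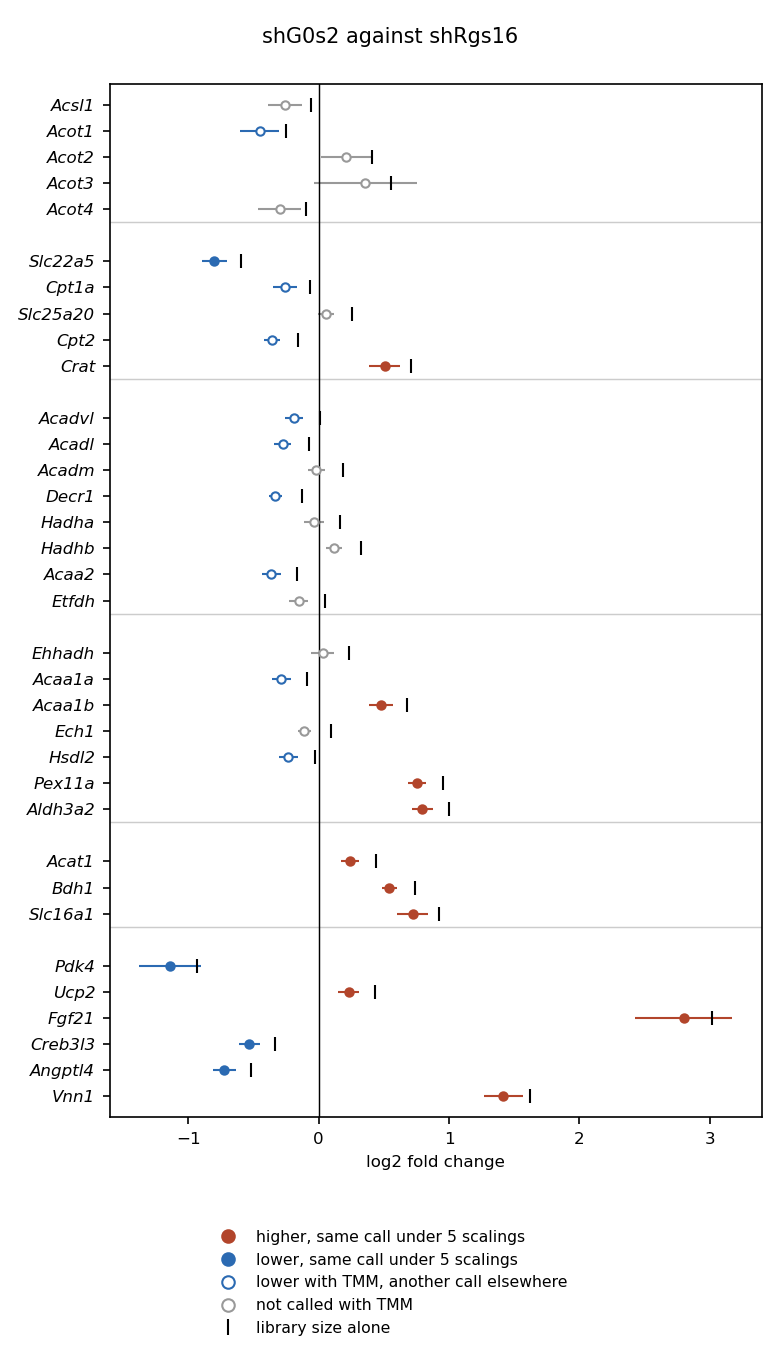
Log2 fold change (x axis) of the 34 genes (rows, by step) in shG0s2 against shRgs16, from a model of 12 samples. Circles are TMM estimates with bars of 1 SE, filled where the call was the same under 5 scalings, and black ticks are library size alone: the 3 ketone body genes, Fgf21 and Vnn1 lie right of 0, and Pdk4, Slc22a5, Angptl4 and Creb3l3 lie left of it.

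Levels per transcript length were compared in TPM. In shLacZ the most abundant transcripts of the set were Acaa1b at 852 ± 27.3 TPM, Acaa2 at 497 ± 21.4 TPM and Acsl1 at 389 ± 67.4 TPM (SD, n = 4), and the least abundant were Acot2 at 7.46 ± 1.69 TPM, Pdk4 at 3.55 ± 0.486 TPM and Fgf21 at 0.955 ± 0.322 TPM. These last 3 were also the genes with the largest log2 rises in shG0s2. The 34 genes held 0.758% of TPM in shG0s2, 0.615% in shRgs16 and 0.532% in shLacZ, while major urinary protein genes held 2.38%, 4.64% and 19.5% in the same groups. Shares within the 34 need no scaling between libraries. Mitochondrial oxidation held 26.5% to 27.8% of the set's TPM in shG0s2, 30.9% to 31.5% in shRgs16 and 30.0% to 31.8% in shLacZ. The peroxisomal and fatty aldehyde genes held 37.9% to 39.4% in shG0s2, 31.2% to 32.5% in shRgs16 and 32.5% to 35.1% in shLacZ. In shG0s2 the first share was thus below and the second above every sample of the other groups. Within the second, Aldh3a2, the fatty aldehyde dehydrogenase gene, averaged 525 TPM in shG0s2, 250 TPM in shRgs16 and 181 TPM in shLacZ. Ehhadh averaged 408, 330 and 141 TPM in those groups, and the whole step 2909, 1947 and 1767 TPM, so these genes weigh heavily in its share. A share falls when the other steps grow, so a lower share is not a lower level. Summed, the mitochondrial genes had 1956 to 2084 TPM in shG0s2, 1895 to 1926 TPM in shRgs16 and 1592 to 1714 TPM in shLacZ. In CPM with TMM the order was the reverse, at 2250 to 2448, 2489 to 2729 and 2745 to 3230 CPM. Regulators and switches held 10.9% to 12.4% in shG0s2, 13.4% to 14.4% in shRgs16 and 8.93% to 10.1% in shLacZ, with no overlap. Of that step, Ucp2 alone averaged 369 TPM in shG0s2, 250 TPM in shRgs16 and 88.8 TPM in shLacZ. The step as a whole averaged 884, 854 and 512 TPM in those groups, so Ucp2 weighs heavily in its share. The carnitine shuttle held 6.87% to 7.41% in shG0s2, 8.00% to 8.39% in shRgs16 and 8.22% to 9.13% in shLacZ, and ketone body genes 8.38% to 9.21%, 6.79% to 7.33% and 7.89% to 10.1% in those groups. No p-value is given for a sum over the set.

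**Figure D5:**
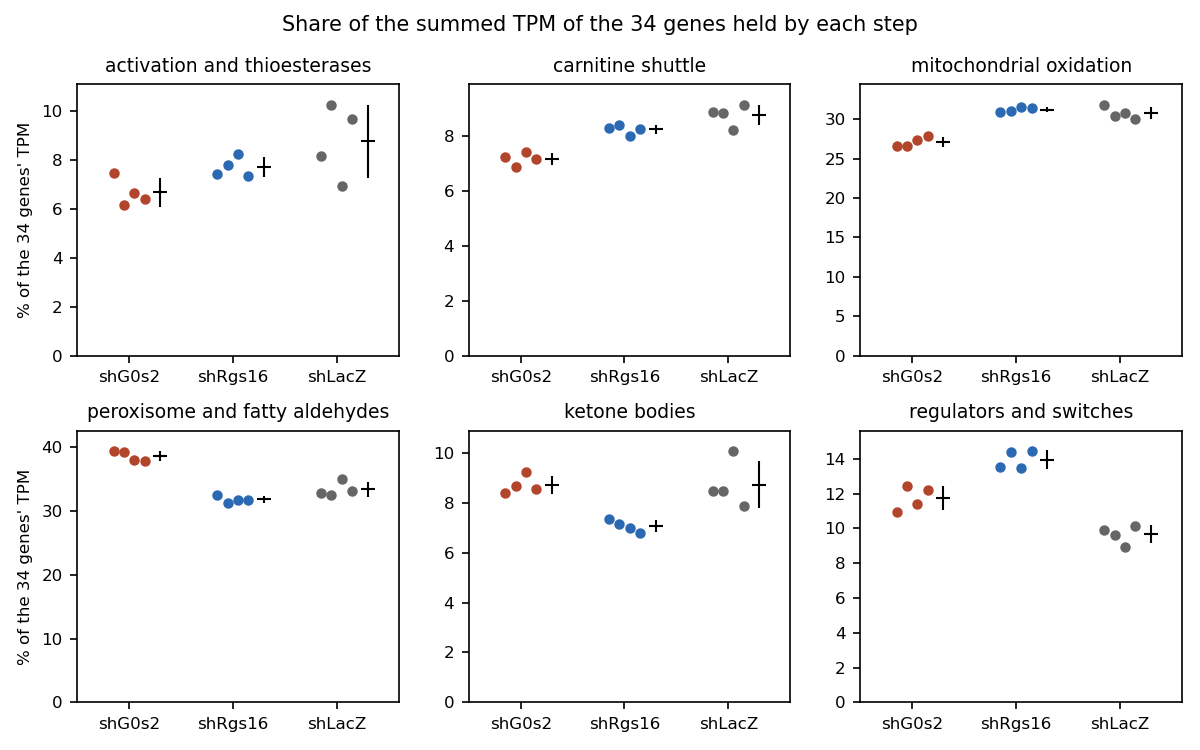
Percent of the summed TPM of the 34 genes (y axis, from 0) held by each of 6 steps in the 4 shG0s2, 4 shRgs16 and 4 shLacZ samples. Points are samples and the bar gives the mean and SD. The share of the step of peroxisomal and fatty aldehyde genes is highest and that of the mitochondrial step lowest in shG0s2. The share of regulators and switches is highest in shRgs16. The summed TPM of the mitochondrial step, not drawn here, is highest in shG0s2.

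A list of 42 other genes of the same pathway was counted in the same fits, and its genes were mostly lower on the TMM scale. In shG0s2 9 were higher, 29 lower and 4 not called (median −0.55), beside 31.3% and 29.2% of all genes higher and lower. Of these calls 9 higher and 3 lower were the same under every scaling, beside 27.9% and 4.32%. With library size alone 17 were higher and 13 lower there, beside 64.6% and 7.99%, and on TPM 20 were higher and 3 lower, beside 72.4% and 4.69%. In shRgs16 9 were higher, 22 lower and 11 not called (median −0.25), beside 24.6% and 24.5%. There 9 and 5 were the same under every scaling, beside 21.9% and 4.56%. The shRgs16 counts were 17 higher and 8 lower with library size alone, beside 50.2% and 8.35%, and 25 higher and 5 lower on TPM, beside 56.4% and 5.04%. Ppara, the gene of PPARα, averaged 297 ± 24.4 CPM in shG0s2, 314 ± 15.3 CPM in shRgs16 and 461 ± 14.0 CPM in shLacZ. It fell in shRgs16 by 0.56 with TMM (SE 0.059, adjusted p = 1.68e-05). In TPM the groups were closer, at 65.3 ± 1.94 TPM in shRgs16 and 72.9 ± 2.29 TPM in shLacZ. In shG0s2 Ppara was −0.63 with TMM, −0.14 with library size alone (adjusted p = 0.0493) and 0.06 on TPM.

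Ppargc1a encodes PGC-1α, a coactivator of PPARα and other nuclear receptors. It had 14.5, 10.6, 14.4 and 11.2 CPM in shG0s2, 24.9, 19.5, 31.0 and 27.6 CPM in shRgs16, and 20.8, 21.2, 20.2 and 17.7 CPM in shLacZ. It was lower in shG0s2 than in shRgs16 by 1.02 (SE 0.137, adjusted p = 4.25e-05) under every scaling. Its rise in shRgs16 against shLacZ (0.36, adjusted p = 0.0313) was kept in 2 of 8 fits without 1 sample, and in shG0s2 it was −0.65 with TMM and −0.16, not called, with library size alone. The largest changes of the 42 in shG0s2 were rises of Abcd2, a peroxisomal importer of very long-chain acyl-CoA (1.69, SE 0.125), and Oxct1, which encodes the enzyme of ketone body use (1.23, SE 0.106), and falls of Bdh2, the gene of a cytosolic dehydrogenase (−2.13, SE 0.194), and Cyp4a10, a fatty acid ω-hydroxylase gene (−1.75, SE 0.215). In shRgs16 they were rises of Oxct1 (1.06, SE 0.109) and Acsl4, an arachidonate-preferring acyl-CoA synthetase gene (0.95, SE 0.130), and falls of Bdh2 (−1.41, SE 0.171) and Fabp1, the liver fatty acid binding protein gene (−0.94, SE 0.118). In shG0s2 against shRgs16, Cpt1b, the muscle form of carnitine palmitoyltransferase 1, was higher in shG0s2 by 1.11 (SE 0.178) and Abcd2 by 0.98 (SE 0.116), while Acadsb, a dehydrogenase gene of branched short chains, was lower by 1.24 (SE 0.077) and Ppargc1a as given above. Each of these largest changes was the same under every scaling.

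Marker lists of other cells moved with the groups, and their part in the results was not tested. Of 14 hepatocyte markers tested, 12 were lower and 0 higher in shG0s2 with TMM (median −0.94), against 9 lower and 2 higher with library size alone; in shRgs16 7 were lower and 2 higher with TMM, against 4 lower and 5 higher with library size alone. Stellate cell and fibroblast markers rose in 11 of 11 cases in shG0s2 and in 8 of 11 in shRgs16, and summed to 527 to 712 TPM in shG0s2, 193 to 324 TPM in shRgs16 and 97.5 to 129 TPM in shLacZ. T and NK cell markers rose in 6 of 8 cases in shG0s2 and 7 of 8 in shRgs16, at 51.0 to 59.1 TPM, 42.3 to 63.0 TPM and, in shLacZ, 8.50 to 23.4 TPM. Endothelial markers summed to 201 to 233 TPM in shG0s2, 173 to 239 TPM in shRgs16 and 136 to 156 TPM in shLacZ, with 1 of 9 higher and 3 lower in shG0s2 and 2 higher in shRgs16 with TMM. Cholangiocyte markers summed to 244 to 347 TPM in shG0s2, 138 to 236 TPM in shRgs16 and 124 to 230.5 TPM in shLacZ, and 2 of 5 tested, Krt7 and Epcam, were higher with TMM in each of shG0s2 and shRgs16. Nearly all of that sum was Spp1; the others summed to 6.74 to 12.4 TPM in shG0s2, 5.17 to 6.72 TPM in shRgs16 and 2.39 to 3.96 TPM in shLacZ. Of the 4 adipocyte markers, which summed to 1.33 to 3.93 TPM in shG0s2, 0.04 to 0.83 TPM in shRgs16 and 1.88 to 3.6 TPM in shLacZ, Adipoq, Plin1 and Lep were at or below 0.1 TPM in every sample, and the 3 skeletal muscle markers together reached at most 20.1 TPM, in an shRgs16 sample.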

How the data were processed

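Bulk liver RNA of 12 samples was sequenced after ribosomal RNA depletion with Ribo-zero. The deposited tables give, per the file headers, estimated counts and TPM of 55536 genes per sample, and the authors' own comparisons with shLacZ as a fold ratio, its log2 value and a p-value. Tools listed, with no role or order, per the submitters' processing notes were SAMtools 1.9, GATK 3.8, Bowtie2 2.2.9, DESeq2 and fastp 0.19.5. The sources used here give no build, annotation, counter or strand setting, and all gene IDs matched GENCODE M21 (GRCm38). The 8 columns of shLacZ values that both tables hold were identical.

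Estimated counts were rounded and tested with edgeR 4.0.16 (R 4.3.3; quasi-likelihood, filterByExpr, TMM, two-sided, Benjamini-Hochberg over all genes tested, threshold 0.05). Each comparison with shLacZ used its 8 samples, and shG0s2 against shRgs16 used a model of all 12. Alternatives were relative log expression, library size alone or without Mup and mitochondrially encoded genes, other filters (none, or 1 CPM in 4 samples), DESeq2 1.42.0, limma 3.58.1 on log2(TPM + 1) for genes with a mean of at least 0.5 TPM, a replicate block, other samples in the fit, and leaving out each sample. Simulated counts with 200 changed genes, as many raised as lowered, were used to test the edgeR fit with TMM alone. They were not built with a shift like that of the Mup genes, so they cannot show which scaling is right. Ratios of counts within a sample had 0.5 added to each count and were tested by exact permutation (scipy 1.17.1). The authors' deposited adjusted p-values (DESeq2) were cut at the same threshold of 0.05. They then gave the same call for 34 of the 34 genes in shG0s2 and 33 in shRgs16, where Acot4 was higher in theirs. The authors' own mark of significance was set for fewer genes. These were Acot2, Acot3, Pdk4, Ucp2, Fgf21 and Acsl1 in shG0s2, and Acot2, Pdk4, Ucp2 and Vnn1 in shRgs16. Replicates of a group differed beyond sampling noise (chi-square per degree of freedom 12.12 to 47.26).

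The genes, lists and tests were chosen with earlier results of these data known. All 34 genes are accounted for by step, and other genes of the pathway are named for their role or as the 2 largest called changes in each direction. Some genes of that list are not reported here. Values are given sample by sample for the 3 genes of each step with the largest changes and for Cpt1a, Acadm, Ehhadh and Fgf21. The ratios of counts, and the sample values of Acot1, Slc22a5, Ucp2, Angptl4 and Ppargc1a, were chosen after their values had been seen.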

Additional observations from a re-analysis of the deposited data

Results flagged for a closer look

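Of 102 sets of 4 samples (34 genes in 3 groups), 5 held 1 sample far from the other 3 by Dixon's test, where chance gives about 1 in 20. Acot2 had 89.1 CPM in shRgs16 replicate 4, against 62.7 to 65.7 CPM in the other shRgs16 samples. Acaa2 had 378.0 CPM in shG0s2 replicate 2, against 453 to 459 CPM in the others, and this was the sample of lowest depth. Acat1 had 424 CPM in shG0s2 replicate 4, against 462 to 469.5 CPM in the others. Hadha and Hadhb, the neighbouring subunit genes, were both low in shLacZ replicate 3, at 406 CPM and 275 CPM, against 500.1 to 508 CPM and 317 to 322 CPM in the other shLacZ samples.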

How the results depend on the processing

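The counts moved by over 1.5 times under 3 alternatives: both library size settings and limma on TPM, which also changed the unit, the test and the filter on low values. Against TMM, library size alone gave 20 higher and 1 lower of the 34 genes in shG0s2 against shLacZ (all genes 10067 and 1246; median of the 34 0.34), 16 and 5 in shRgs16 against shLacZ (7686 and 1279; 0.12), and 15 and 6 in shG0s2 against shRgs16 (6054 and 1568; 0.13). Library size without Mup and mitochondrially encoded genes gave 15 and 8 (8087 and 1930; 0.17), 11 and 10 (5847 and 1945; 0.0048), and 12 and 7 (5260 and 1804; 0.082) in the same order. Limma on log2(TPM + 1) gave 27 and 1 (11026 and 714; 0.53), 21 and 4 (8308 and 743; 0.25), and 17 and 4 (6308 and 1099; 0.19). With TMM the counts over all genes were 4875 and 4556, 3770 and 3749, and 3359 and 3281. Relative to the median of all genes, the median of the 34 was −0.16, −0.19 and −0.09 with TMM, −0.16, −0.18 and −0.08 with library size alone, and −0.03, −0.09 and −0.04 on TPM, in that order. Relative log expression, the filters, DESeq2 and other samples in the fit kept each count within 1.5 times. Depth limits Fgf21 above all, at under 1 CPM in 8 of 12 samples.

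With library size alone, 14 of the 34 genes changed sign in shG0s2 against shLacZ, with log2 fold changes of Slc22a5 0.067, Slc25a20 0.12, Acadl 0.25, Acadm 0.41, Decr1 0.0020, Hadha 0.31, Hadhb 0.43, Etfdh 0.031, Acaa1b 0.33, Ech1 0.069, Hsdl2 0.47, Pex11a 0.35, Acat1 0.15 and Angptl4 0.13. In shRgs16 against shLacZ 8 did so, with log2 fold changes of Cpt2 0.12, Crat 0.046, Acadm 0.22, Decr1 0.13, Hadha 0.15, Hadhb 0.11, Acaa2 0.061 and Creb3l3 0.24. In shG0s2 against shRgs16 5 did so, with log2 fold changes of Acadvl 0.014, Acadm 0.19, Hadha 0.16, Etfdh 0.047 and Ech1 0.092. With library size without Mup and mitochondrially encoded genes, 7 of the 34 genes changed sign in shG0s2 against shLacZ, with log2 fold changes of Acadl 0.087, Acadm 0.24, Hadha 0.14, Hadhb 0.26, Acaa1b 0.16, Hsdl2 0.31 and Pex11a 0.18. In shRgs16 against shLacZ 4 did so, with log2 fold changes of Acadm 0.10, Decr1 0.011, Hadha 0.026 and Creb3l3 0.12. In shG0s2 against shRgs16 4 did so, with log2 fold changes of Acadm 0.14, Hadha 0.12, Etfdh 0.0026 and Ech1 0.047. With limma on log2(TPM + 1), 20 of the 34 genes changed sign in shG0s2 against shLacZ, with log2 fold changes of Slc22a5 0.28, Cpt1a 0.049, Slc25a20 0.33, Cpt2 0.14, Acadvl 0.074, Acadl 0.46, Acadm 0.59, Decr1 0.22, Hadha 0.56, Hadhb 0.54, Acaa2 0.11, Etfdh 0.23, Acaa1a 0.091, Acaa1b 0.53, Ech1 0.29, Hsdl2 0.67, Pex11a 0.50, Acat1 0.32, Creb3l3 0.055 and Angptl4 0.34. In shRgs16 against shLacZ 13 did so, with log2 fold changes of Cpt1a 0.027, Cpt2 0.23, Crat 0.089, Acadvl 0.015, Acadm 0.38, Decr1 0.27, Hadha 0.35, Hadhb 0.15, Acaa2 0.19, Etfdh 0.13, Acaa1a 0.14, Ech1 0.12 and Creb3l3 0.37. In shG0s2 against shRgs16 9 did so, with log2 fold changes of Acsl1 0.0017, Cpt1a 0.021, Acadvl 0.058, Acadl 0.0045, Acadm 0.21, Hadha 0.21, Etfdh 0.10, Ech1 0.17 and Hsdl2 0.049.

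With 1 sample left out the median of the 34 ran between −0.19 and −0.13 in shG0s2 against shLacZ and between −0.24 and −0.15 in shRgs16 against shLacZ. Genes near 0 crossed it: Acot1 (−0.16 to 0.083), Vnn1 (−0.085 to 0.10) and Hsdl2 (−0.084 to 0.028) in shG0s2 against shLacZ, Slc16a1 (−0.087 to 0.13) and Acadl (−0.020 to 0.052) in shRgs16 against shLacZ, and Ehhadh (−0.027 to 0.088) and Acadm (−0.054 to 0.011) in shG0s2 against shRgs16. Vnn1 in shG0s2 against shLacZ was also −0.0030 with DESeq2, −0.0031 with relative log expression and −0.0050 in a model of all 12 samples. No called gene moved by over 1.5 times when 1 sample was left out.

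Deviations of samples with the same replicate number had correlations of −0.07 to 0.14 over 16018 genes. Samples with different numbers had −0.13 to 0.11. With 4 samples per group this cannot tell whether samples of the same number shared a batch. With the replicate number as a block, 8 of the 34 genes were higher and 15 lower in shG0s2 against shLacZ, 7 and 14 in shRgs16 against shLacZ and 10 and 12 in shG0s2 against shRgs16, and Acot1 in shG0s2 against shLacZ was −0.0023.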
